A study of Homo sapiens with 4 samples.

Results

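The NF-κB and IKK complex genes described here are 10 of the 58302 genes measured in HepG2 cells, and they were chosen by name. They are the IκB kinase (IKK) subunit genes IKBKG, IKBKB and CHUK, the NF-κB subunit genes RELA, RELB, NFKB1 and NFKB2, the inhibitor genes NFKBIA and NFKBIB, and TNFAIP3. HepG2 cells, which the study describes as a human hepatocellular carcinoma line, are wild type by their labels and were grown in MEM with fetal bovine serum. The cells received either DMSO, the solvent, or melatonin at 1 mM, and polyadenylated RNA was sequenced after 24 h and after 48 h. Each of these 4 conditions was a single library, so the spread between cultures is unknown and the values describe these libraries. In a bulk library, fewer cells that express a gene and less RNA of it per cell cannot be told apart.

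NF-κB is a family of dimeric transcription factors that turn on genes of inflammation and cell survival, and in resting cells most dimers are held in the cytoplasm by IκB inhibitor proteins. The IKK complex phosphorylates the inhibitors, which are then degraded and release NF-κB. IKBKG encodes NEMO, the regulatory subunit that binds ubiquitin chains and on which the catalytic subunits IKK-β (IKBKB) and IKK-α (CHUK) are assembled. In the liver, the pathway is known both for protecting hepatocytes from cell death and for its part in inflammation and tumour growth.

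The study examined how melatonin alters RNA splicing, with exon 5 of IKBKG among the exons it followed, and the values used here are gene totals, so the exon is shown for context and its inclusion was not measured here. In GENCODE 44 the exon lies on the forward strand at chrX:154560407-154560559 of hg38, inside the coding sequence, as exon 5 of the 10 exons of the transcript IKBKG-206. It is 153 bp long, 74.5% of its bases are G or C, and it stands between introns of 1756 and 1128 bp. It is part of 15 annotated IKBKG transcripts, and 2 others join its neighbours directly. Its sequence is printed with 30 intronic bases on each side, and the capitals mark the exon.
IKBKG exon 5: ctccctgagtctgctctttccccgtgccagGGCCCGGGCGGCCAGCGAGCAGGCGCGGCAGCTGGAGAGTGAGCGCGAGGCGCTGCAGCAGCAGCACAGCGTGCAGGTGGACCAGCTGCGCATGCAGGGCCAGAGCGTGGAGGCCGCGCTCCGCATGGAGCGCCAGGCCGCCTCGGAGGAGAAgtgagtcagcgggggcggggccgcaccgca
The intron ends in ag before the exon and begins with gt after it. The same 153 bases, and all 213 of the 213 bases printed, stand a further time on the reverse strand in the pseudogene IKBKGP1, at chrX:154643879-154644031. Of the 1973 bases of IKBKG-206, 1073 (54.4%) lie in stretches of at least 50 bases that the pseudogene repeats exactly, and 7 of the 10 exons, 3 to 9, are repeated whole. Reads from these exons could have been given to either gene, which makes the IKBKG total uncertain.

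NF-κB is known to drive genes of its own inhibitors, and the kappaB consensus, a motif of 10 bases, was therefore searched on both strands in the 250 bases before the RefSeq starts (GRCh38.p14) of the members. Of the 10 genes, 8 matched the promoter table by symbol, and IKBKB and RELB did not. A match stood before at least 1 start of 5 of the 8 genes (NFKB1, NFKB2, NFKBIA, NFKBIB and TNFAIP3), against 11.8% of 27305 genes in the table. Counted by window, 6 of 16 windows of the members held a match, against 9.96% of 35116. The windows before IKBKG, CHUK and RELA held none, which says only that these letters are not in those windows. Of the 30 target genes listed for the pathway, 25 were in the table and 14 of them held a match. These are matches of letters and not measured binding sites. Sequence before the RefSeq start is printed for 3 members to show where the matches stand, with the matches in capitals, from chr4:102501109-102501328 (+) for NFKB1, chr14:35404750-35404999 (-) for NFKBIA and chr6:137867009-137867213 (+) for TNFAIP3.
NFKB1: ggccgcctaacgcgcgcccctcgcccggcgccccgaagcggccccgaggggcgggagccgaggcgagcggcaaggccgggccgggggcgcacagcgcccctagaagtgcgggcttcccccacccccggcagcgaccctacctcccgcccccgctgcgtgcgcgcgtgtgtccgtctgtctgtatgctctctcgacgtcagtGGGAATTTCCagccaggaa
NFKBIA: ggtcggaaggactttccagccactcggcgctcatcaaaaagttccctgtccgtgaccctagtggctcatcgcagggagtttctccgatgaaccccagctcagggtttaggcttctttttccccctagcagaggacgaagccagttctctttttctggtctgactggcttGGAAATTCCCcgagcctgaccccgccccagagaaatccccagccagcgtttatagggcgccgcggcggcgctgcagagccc
TNFAIP3: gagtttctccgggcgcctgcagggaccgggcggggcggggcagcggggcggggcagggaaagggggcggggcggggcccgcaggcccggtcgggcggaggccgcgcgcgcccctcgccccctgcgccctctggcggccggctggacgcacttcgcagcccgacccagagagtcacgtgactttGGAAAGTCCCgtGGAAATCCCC
Counted back from the start, the match of NFKB1 ran from -49 to -40 and that of NFKBIA from -81 to -72. TNFAIP3 held 2 matches, from -67 to -58 and from -55 to -46, with 2 bases between them. The files place the start of TNFAIP3 farther upstream, at 137867188, so that both of its matches lie inside the gene as the files give it. The same holds for all matches of NFKB2 and NFKBIB, whose starts in the files are at 102394110 and 38899700. The windows of NFKB2 and NFKBIB that lie before those starts held 0 matches.

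The libraries held between 21616676 and 23086025 reads on genes, recovered from the deposited FPKM (fragments mapped to a gene, divided by its length and by the library's size), and every member had between 119 and 1861 reads in each. The intervals given are exact Poisson intervals at 95% and cover counting error only. All 8 hepatocyte markers had an FPKM of at least 1 in every library, with a summed FPKM of 7353 to 9309. Of 8 leukocyte and Kupffer cell markers, PTPRC, CD3E and MARCO had at most 1 read, and LYZ accounted for almost all of the summed FPKM of 731 to 1069. The 8 endothelial and stellate cell markers summed to an FPKM of 4.66 to 8.85. Most of it came from the stellate markers ACTA2 (2.11 to 3.81) and PDGFRB (0.774 to 4.33), which were expressed in every library. COL1A2 had 0 reads, but most of these 8 markers were detected. At or below 3 reads were 1 of the 8 in each 24 h library and 2 in each 48 h library. The part of these markers in the results was not tested.

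By level, the inhibitor gene NFKBIA led with a mean FPKM of 29.2 over the 4 libraries, followed by TNFAIP3 with 14.3. RELA (10.4), NFKBIB (9.94), NFKB1 (9.75) and NFKB2 (7.82) formed the middle of the order by mean FPKM. The IKK subunit genes lay below them, IKBKG at 4.70, CHUK at 4.43 and IKBKB at 3.85, and RELB was lowest at 2.43. Between neighbours in this order, the ranges over the libraries were separate only between NFKBIA and TNFAIP3 and between NFKB2 and IKBKG. All other neighbours overlapped. The gap between NFKB2 and IKBKG was narrow, from a lowest value of 6.89 to a highest value of 6.77. With the reads of IKBKGP1 added, IKBKG reached 10.7 in the DMSO 48 h library, and its range overlapped that of NFKB2.

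**Figure D1:**
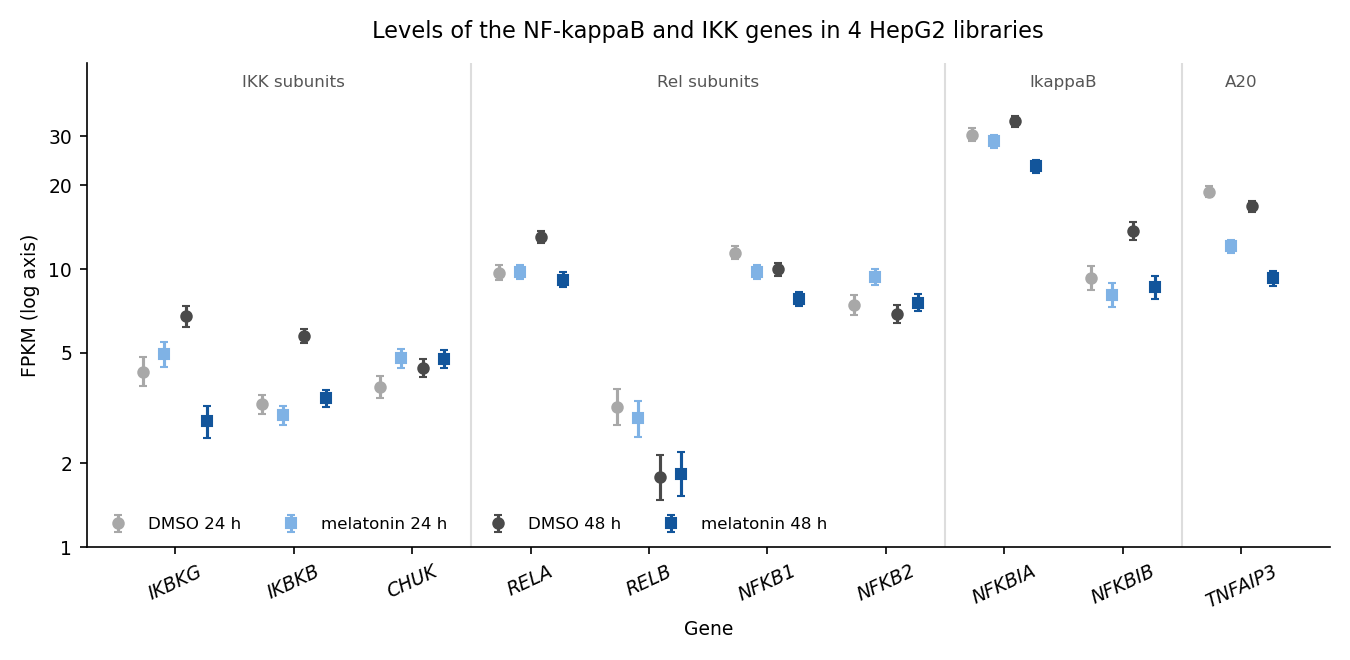
FPKM on a log axis of the 10 genes in each of the 4 libraries (grey circles DMSO, blue squares melatonin, light 24 h, dark 48 h), with 95% Poisson intervals for counting error. The DMSO 48 h library holds the highest value of IKBKG (6.77), IKBKB (5.74), RELA (13.1), NFKBIA (34.0) and NFKBIB (13.7). RELB is lowest of the genes in all libraries, at 24 h with intervals that overlap those of IKBKB.

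With melatonin, 0 of the 10 genes passed 2-fold at 24 h, where 4.35% of 13582 genes did in either direction, and 1 passed it at 48 h, where 5.72% of 13805 genes did. That gene was IKBKG, which fell, and 3.32% of genes fell past 2-fold at 48 h. A gene counts as past 2-fold when log2(FPKM + 1) differs by at least 1, and it was tested where 1 of the libraries or both reached an FPKM of 1. The median difference of the 10 genes in log2(FPKM + 1) was -0.09 at 24 h and -0.49 at 48 h, beside 0.02 and -0.02 for all genes tested.

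IKBKG (ENSG00000269335, chrX:154541199-154565046, forward strand) had an FPKM of 4.28 (3.79 to 4.81) in DMSO and 4.93 (4.43 to 5.47) in melatonin at 24 h. At 48 h it had 6.77 (6.20 to 7.38) in DMSO and 2.83 (2.47 to 3.23) in melatonin. The melatonin 48 h library was thus the lowest and the DMSO 48 h library the highest of the 4, with the 24 h libraries between them. The ratio of melatonin to DMSO was 1.15 (exact conditional interval 0.983 to 1.35) at 24 h and 0.418 (0.356 to 0.490) at 48 h. In log2(FPKM + 1) the 48 h difference was -1.02, just past the 2-fold limit, and 3.10% of the genes tested fell at least as far. Over the other settings tried it ran from -1.40 to -0.98, past 2-fold in 5 of 9. Those past it include the settings without a minimum FPKM and with a minimum of 5, which cannot change the value of a gene.

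At 48 h the catalytic subunit genes differed less between the treatments. IKBKB (ENSG00000104365, chr8:42271302-42332653, forward strand), which encodes the kinase of the classical branch, had an FPKM of 3.26 in DMSO and 2.98 in melatonin at 24 h, and 5.74 and 3.43 at 48 h. Its DMSO 48 h library stood above the other 3, whose values were close to each other. The ratio of melatonin to DMSO was 0.914 (0.816 to 1.02) at 24 h and 0.596 (0.545 to 0.652) at 48 h. The 24 h ratio moves to the other side of 1 after rescaling to TPM, which sets the summed level of all genes equal in each library. CHUK (ENSG00000213341, chr10:100188298-100229619, reverse strand), whose kinase is also needed in the alternative branch, had an FPKM of 3.76 and 4.78 at 24 h and of 4.42 and 4.76 at 48 h, DMSO first. It was the only IKK subunit gene whose melatonin value was the higher at both times, with ratios of 1.27 (1.13 to 1.43) and 1.08 (0.970 to 1.20). The interval at 48 h includes 1. CHUK shares 37 bp with ERLIN1 on the same strand, which leaves its reads there uncertain.

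Set side by side, the totals of the IKK subunit genes stood in another order in the melatonin 48 h library. IKBKG made up 37.9%, 38.9% and 40.0% of their summed FPKM in the DMSO 24 h, melatonin 24 h and DMSO 48 h libraries, and 25.7% in the melatonin 48 h library. In the first 3 of these libraries IKBKG was the most abundant of the subunit genes per length. At 24 h its counting interval overlapped that of CHUK with DMSO (3.79 to 4.81 and 3.43 to 4.11) and with melatonin (4.43 to 5.47 and 4.42 to 5.15). In the melatonin 48 h library IKBKG was the least abundant, with a counting interval (2.47 to 3.23) that overlapped that of IKBKB (3.19 to 3.68). With the reads of IKBKGP1 added, IKBKG had an FPKM of 3.433 there, beside 3.426 for IKBKB, and was no longer the lowest. The FPKM of IKBKG was 1.18 times that of IKBKB in the DMSO 48 h library and 0.827 times with melatonin. Against CHUK the same quotient was 1.53 and 0.595. CHUK took the largest share with melatonin at 48 h (43.2%) and the smallest with DMSO at 48 h (26.1%).

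**Figure D2:**
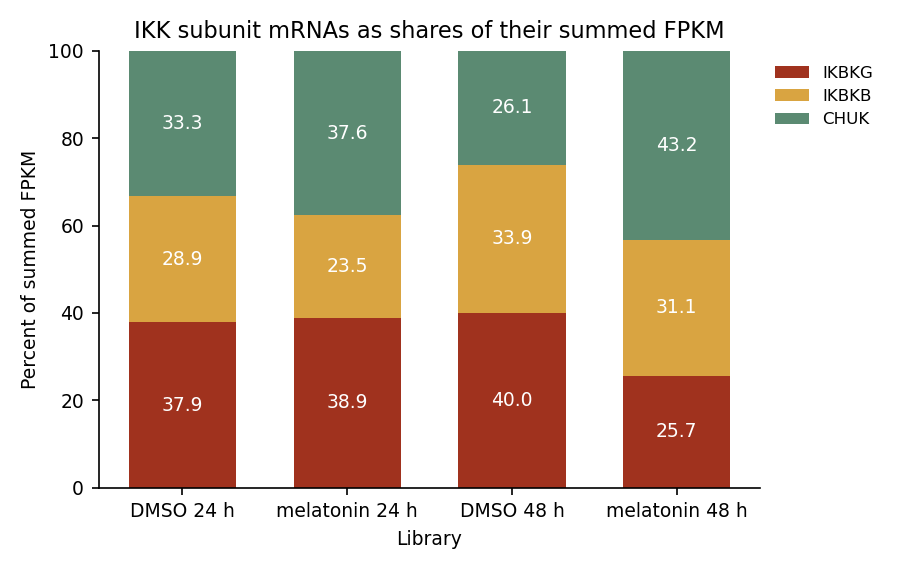
Percent of the summed FPKM of IKBKG, IKBKB and CHUK taken by each gene, 1 stacked bar per library. The IKBKG share is 37.9% to 40.0% in 3 libraries and 25.7% with melatonin at 48 h, where CHUK has 43.2%.

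The reads given to the pseudogene IKBKGP1 were spread over the libraries in other proportions than those given to IKBKG. Its counted length was 1073 bp, and 1073 bases of IKBKG-206 are repeated exactly in its span, so these reads could come from either gene. IKBKGP1 had 33 reads in DMSO and 12 in melatonin at 24 h, and 303 and 47 at 48 h. As a share of the reads on either gene this was 10.6% (exact binomial interval 7.44% to 14.6%) and 3.29% (1.71% to 5.67%) at 24 h, and 36.6% (33.3% to 40.0%) and 17.5% (13.1% to 22.5%) at 48 h. The DMSO 48 h library thus stood highest for both the gene and the copy. With the reads of the copy added, IKBKG had an FPKM of 4.79, 5.10, 10.7 and 3.43 in DMSO and melatonin at 24 h and then in DMSO and melatonin at 48 h, and the 48 h difference in log2(FPKM + 1) became -1.40. Its share of the IKK subunit genes became 51.3% with DMSO and 29.5% with melatonin at 48 h. The part of the copy in the IKBKG difference was not tested.

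**Figure D3:**
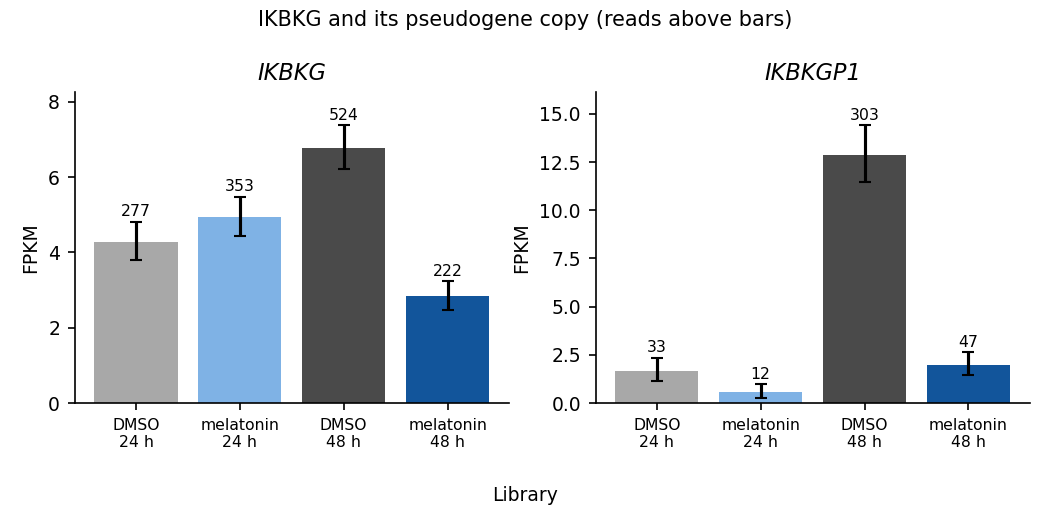
FPKM of IKBKG and of its pseudogene copy IKBKGP1 in the 4 libraries (bars from 0, 95% Poisson intervals, recovered reads above the bars, each panel with its own axis). Both are highest with DMSO at 48 h (524 and 303 reads), and IKBKG is lowest with melatonin at 48 h (222 reads).

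Of the NF-κB subunit genes, 0 passed 2-fold with melatonin at either time, beside 4.35% of all genes tested at 24 h and 5.72% at 48 h. With so few genes, 0 is near these shares. RELA (ENSG00000173039, chr11:65653596-65663094, reverse strand), which encodes the main transactivating subunit of the classical pathway, had an FPKM of 9.72 in DMSO and 9.76 in melatonin at 24 h, and 13.1 and 9.17 at 48 h. The DMSO 48 h library was again the high one, and the other 3 lay close together. The ratio was 1.00 (0.920 to 1.10) at 24 h and 0.702 (0.650 to 0.759) at 48 h. The sign of the 24 h difference turned when it was centred on the median of all genes or corrected for GC content and length.

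NFKB1 (ENSG00000109320, chr4:102501329-102617302, forward strand) encodes the precursor of the usual partner of RELA. Its FPKM was 11.5 in DMSO and 9.75 in melatonin at 24 h, and 9.97 and 7.82 at 48 h, with the lower value in melatonin at each time. The ratios were 0.851 (0.787 to 0.920) and 0.785 (0.724 to 0.850), so counting error did not reach 1 at either time. NFKB2 (ENSG00000077150, chr10:102394110-102402529, forward strand), whose precursor protein is processed in the alternative branch, had an FPKM of 7.43 and 9.37 at 24 h and of 6.89 and 7.57 at 48 h, DMSO first. Its melatonin value was the higher at each time, with ratios of 1.26 (1.13 to 1.40) and 1.10 (0.989 to 1.22), and the interval at 48 h includes 1. RELB (ENSG00000104856, chr19:45001430-45038198, forward strand), the usual partner of the NFKB2 product, had an FPKM of 3.19 and 2.91 at 24 h and of 1.79 and 1.84 at 48 h, from 119 to 179 reads. The ratio intervals of RELB, 0.735 to 1.13 and 0.794 to 1.33, included 1 at both times, and the sign turned with TPM at both, so a difference of this size was not detectable at this depth. For RELB the 48 h libraries were lower than the 24 h libraries under both treatments.

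The quotient of RELA to NFKB1 in FPKM was 0.848 in DMSO and 1.00 in melatonin at 24 h, and 1.31 and 1.17 at 48 h. That of RELB to NFKB2 was 0.430 and 0.310 at 24 h, and 0.259 and 0.243 at 48 h. NFKB2 was thus the more abundant of the alternative pair per length in every library.

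The inhibitor genes were lower with melatonin at 48 h, short of 2-fold. NFKBIA (ENSG00000100906, chr14:35401511-35404749, reverse strand) encodes IκBα, which NF-κB induces and which shuts the response off. Its FPKM was 30.4 in DMSO and 28.8 in melatonin at 24 h, and 34.0 and 23.4 at 48 h, and the melatonin 48 h library stood below the other 3. The ratio was 0.947 (0.878 to 1.02) at 24 h, on the other side of 1 with TPM, and 0.689 (0.640 to 0.741) at 48 h. NFKBIB (ENSG00000104825, chr19:38899700-38908893, forward strand), which encodes IκBβ, had an FPKM of 9.33 and 8.08 at 24 h and of 13.7 and 8.60 at 48 h, DMSO first. For NFKBIB the DMSO 48 h library was the high one. The ratios were 0.866 (0.751 to 0.9996) and 0.626 (0.555 to 0.707). NFKBIB overlaps SIRT2, on the opposite strand, over 163 bp. NFKBIA had between 2.55 and 3.13 times the FPKM of RELA, with the highest quotient in the DMSO 24 h library and the lowest in the melatonin 48 h library.

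TNFAIP3 (ENSG00000118503, chr6:137867188-137883312, forward strand) encodes a ubiquitin-editing enzyme that NF-κB induces and that acts on the signalling complexes upstream of NEMO. Its FPKM was 19.0 (18.1 to 19.9) in DMSO and 12.1 (11.4 to 12.8) in melatonin at 24 h, and 16.8 (16.0 to 17.6) and 9.25 (8.70 to 9.84) at 48 h. Both melatonin libraries lay below both DMSO libraries, and no intervals overlapped between the treatments. The ratio was 0.635 (0.590 to 0.684) at 24 h and 0.551 (0.510 to 0.595) at 48 h, both short of 2-fold. In log2(FPKM + 1) the differences were -0.61 and -0.80, and 7.03% and 5.64% of all genes tested fell at least as far. Over the other settings the 24 h value ran from -0.65 to -0.47 and the 48 h value from -0.89 to -0.74. The antisense gene AL357060.2, which overlaps TNFAIP3 over 1046 bp, had 58 and 23 reads at 24 h and 71 and 39 at 48 h, and since the sources used here do not say whether counting used strand, its reads cannot be told apart from those of TNFAIP3.

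**Figure D4:**
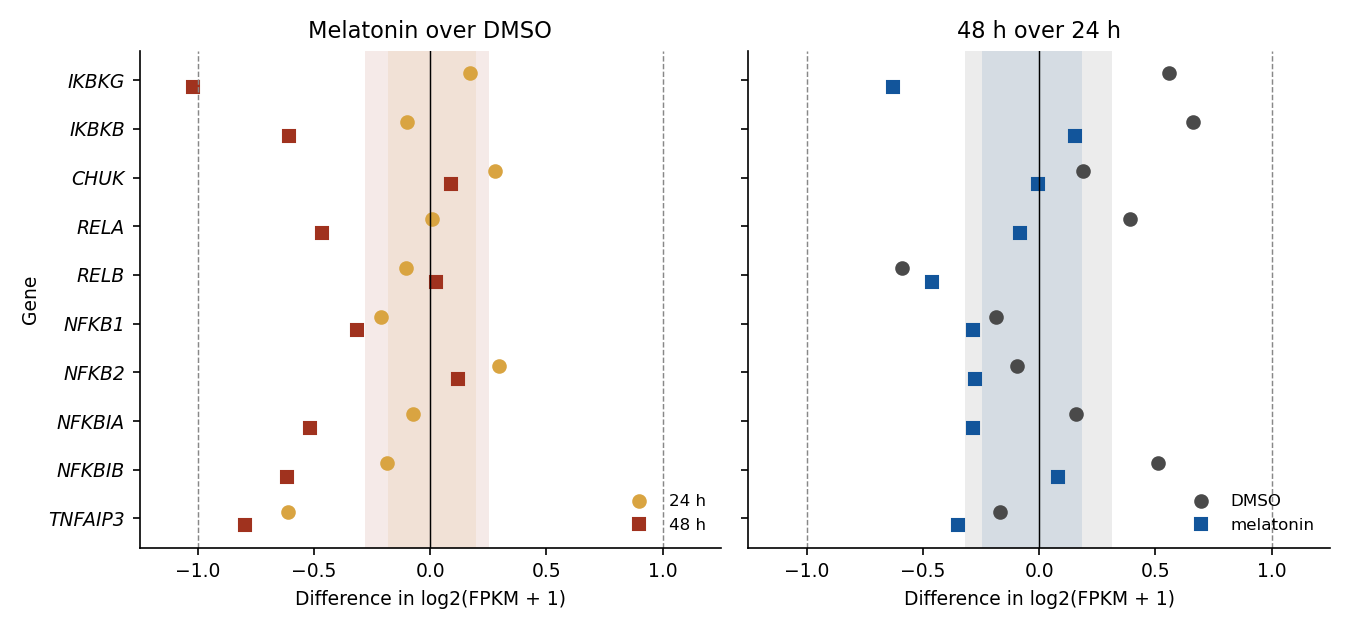
Difference in log2(FPKM + 1) of each gene, melatonin over DMSO (left, circles 24 h, squares 48 h) and 48 h over 24 h (right, circles DMSO, squares melatonin). Dashed lines mark 2-fold, and the shaded bands span the middle 50% of all genes tested. IKBKG at 48 h (-1.02) is the only point past a dashed line. Points near 0 change side with the scaling: at 24 h IKBKB, RELB and NFKBIA with TPM and RELA with centring or the GC content and length correction, at 48 h RELB with TPM, on the right NFKB1, NFKB2 and TNFAIP3 (DMSO) and CHUK and RELA (melatonin).

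At the lower limit of 1.5-fold, TNFAIP3 was the only member past it at 24 h, downwards, where 7.53% of genes were. At 48 h the members past 1.5-fold were IKBKG, IKBKB, NFKBIB and TNFAIP3, all downwards, which is 4 of 10 beside 10.0% of genes. Judged by counting error alone, the ratio interval lay below 1 for 3 members at 24 h (22.4% of genes) and for 7 at 48 h (33.1%). It lay above 1 for 2 members at 24 h (28.2%) and for 0 at 48 h (29.1%). The members below 1 at 48 h were IKBKG, IKBKB, RELA, NFKB1, NFKBIA, NFKBIB and TNFAIP3. CHUK, NFKB2 and RELB, whose intervals included 1, are the remaining members, and the last 2 of them encode the partners of the alternative branch.

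Both melatonin libraries lay below both DMSO libraries for 4 of the 10 genes (NFKB1, NFKBIA, NFKBIB and TNFAIP3), beside 18.5% of the 14612 genes that reached an FPKM of 1 anywhere. The reverse order held for CHUK and NFKB2, beside 18.1% of genes. With TPM, 2 members were below (NFKB1 and TNFAIP3), beside 10.2% of 19432 genes, and 1 was above (NFKB2), beside 19.0%. For IKBKG, IKBKB, RELA and RELB the treatments overlapped.

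The comparisons of time use the same libraries as those of treatment, so their values are given side by side only. From 24 to 48 h with DMSO, 0 members passed 2-fold, where 7.74% of genes did, and with melatonin 0 did, where 4.15% of genes did. Past 1.5-fold were IKBKB upwards (11.2% of genes) and RELB downwards (12.6%) with DMSO, and IKBKG downwards (6.05%) with melatonin. IKBKG had a 48 h to 24 h ratio of 1.58 (1.37 to 1.84) with DMSO and of 0.574 (0.483 to 0.681) with melatonin. For IKBKB the ratios were 1.76 (1.599 to 1.94) and 1.15 (1.03 to 1.28). For RELB they were 0.560 (0.440 to 0.710) and 0.633 (0.499 to 0.800). The DMSO 48 h library held the highest value of 5 members and the melatonin 48 h library the lowest value of 5, beside 33.1% and 22.1% of 14612 genes.

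The rest of the pathway was described from lists of genes by role. In log2(FPKM + 1), 0 of their genes tested passed 2-fold with melatonin at 24 or 48 h. Among all genes tested, 4.35% did at 24 h and 5.72% at 48 h. A ratio of plain FPKM can pass 2-fold where log2(FPKM + 1) does not, as for the target gene CXCL8 at 24 h. CXCL8, named after its values were seen, had an FPKM of 1.80 with DMSO and 0.867 with melatonin, from 75 and 40 reads. Of the other NF-κB and IκB family genes, 6 of 7 were tested, with a median difference in log2(FPKM + 1) of 0.08 at 24 h and -0.09 at 48 h. NKIRAS2, which encodes a Ras-like protein that binds IκB, had the highest mean level among them, with an FPKM of 6.52 to 7.23. All 12 IKK-related kinases and adaptors were tested, with medians of -0.05 and -0.19. CDC37, the kinase chaperone that associates with IKK, was highest, with an FPKM of 37.9 to 52.6. Past 1.5-fold downwards were IKBKE, a kinase related to IKK-β, at 24 h (4.41 with DMSO, 2.43 with melatonin) and TANK and TBKBP1, adaptors of the related kinase TBK1, at 48 h (9.49 and 5.42, 9.07 and 5.16). Among all genes tested, 7.53% fell past 1.5-fold at 24 h and 10.0% at 48 h. IKBKE, TANK and TBKBP1 were chosen for naming after their values were seen.

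Of the ubiquitin ligases and deubiquitinases of NEMO signalling, 18 of 20 were tested and 0 passed 1.5-fold with melatonin at either time. Past 1.5-fold in either direction were 11.6% of all genes tested at 24 h and 18.7% at 48 h. The medians of this list were 0.06 at 24 h and -0.11 at 48 h. RBCK1, a subunit of the linear ubiquitin ligase whose chains NEMO binds, was highest and had an FPKM of 41.7 in DMSO and 46.0 in melatonin at 24 h, and 51.7 and 45.2 at 48 h. Of 17 receptors and proximal adaptors 12 were tested, with medians of 0.09 and 0.05. IRAK1, the kinase below the interleukin-1 and Toll-like receptors, was highest, with an FPKM of 64.4 and 51.3 at 24 h and of 44.3 and 37.4 at 48 h. IL1R1, the interleukin-1 receptor, named after its values were seen, was the list's only gene past 1.5-fold, at 48 h, with 24.0 in DMSO and 14.1 in melatonin. Of 8 ligand genes only TNFSF12 reached an FPKM of 1, with 35 to 76 reads a library, and TNF had 1 to 4 reads.

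Of 30 known NF-κB target genes, 12 were tested at 24 h and 11 at 48 h, and 10 were at or below 3 reads in both libraries at each time. The median difference of those tested was -0.12 at 24 h and -0.25 at 48 h, with 8 below 0 at each time. Among all genes tested, 6316 of 13582 were below 0 at 24 h and 7252 of 13805 at 48 h. Because genes enter the test through the library where they are high, these medians describe the genes tested and not the whole list. CCL20, a chemokine, was highest, with an FPKM of 128 in DMSO and 131 in melatonin at 24 h, and 183 and 199 at 48 h. At 48 h CSF1, a macrophage growth factor (13.7 and 6.76), ICAM1, an adhesion molecule (71.2 and 41.4), and CFLAR, an inhibitor of caspase-8 activation (5.19 and 2.99), were past 1.5-fold downwards, and at 24 h CSF1 alone was (7.27 and 4.11). Beside these, 10.0% of all genes tested fell past 1.5-fold at 48 h and 7.53% at 24 h. CSF1, ICAM1 and CFLAR were likewise named after their values were seen. IL6, VCAM1 and CSF2 had 0 reads in all libraries.

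**Figure D5:**
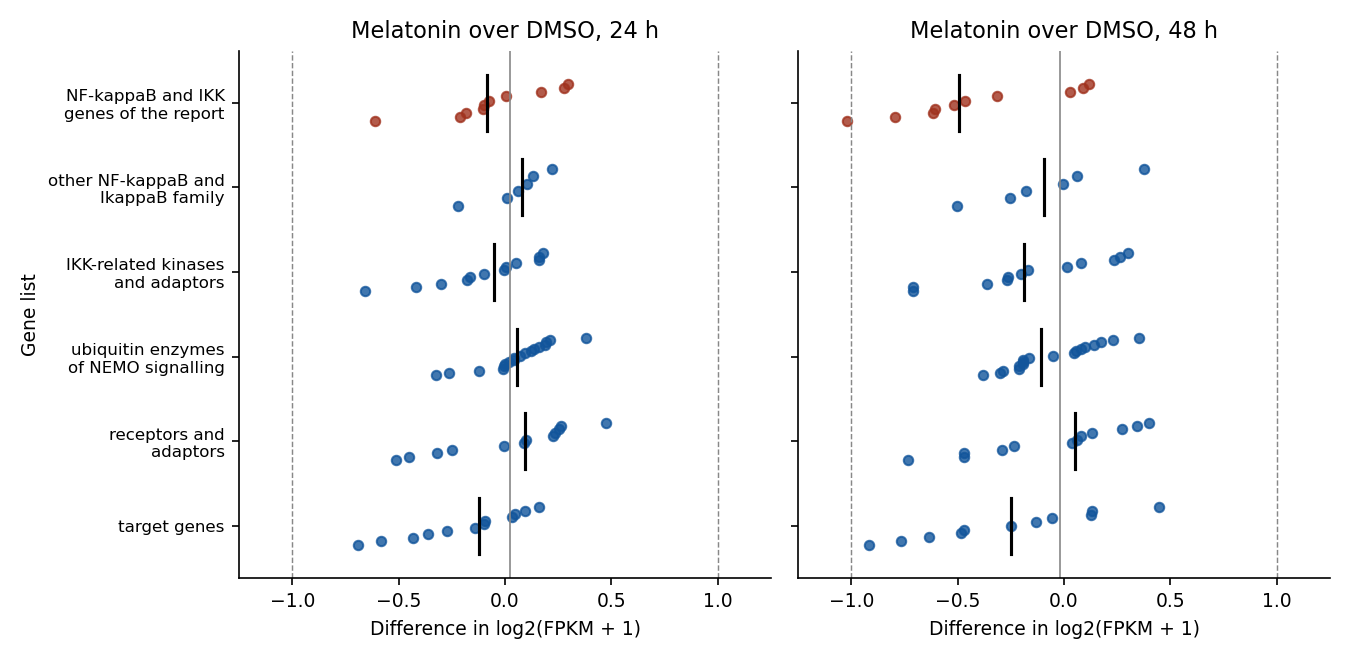
Differences in log2(FPKM + 1), melatonin over DMSO, at 24 h (left) and 48 h (right), 1 point per tested gene, with black bars for list medians, the grey line for the median of all genes and dashed lines at 2-fold. The median of the 10 genes of the report (red) is -0.49 at 48 h, and the medians of the other lists (blue) lie between -0.25 and 0.05. The ligand list, with 1 tested gene, is not drawn.

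The genes whose pattern over the 4 libraries was most like that of IKBKG were sought in the 9643 protein-coding genes that had 100 reads or more per library, by the Euclidean distance of log2(FPKM + 1) profiles after centring on their means. They were SLC3A2, the heavy chain of amino acid transporters, at a distance of 0.12, TF, which encodes transferrin, at 0.20, and ACTA1, a muscle actin, at 0.21. CD74, the invariant chain of class II antigen presentation, and ZNF598, a ubiquitin ligase that acts at stalled ribosomes, were both at 0.23. SLC3A2 had an FPKM of 91.0 and 105.8 at 24 h and of 151.3 and 69.0 at 48 h, DMSO first, so that its libraries stood in the same order as those of IKBKG. Among the members, NFKBIA was nearest to IKBKG, at place 109 of the 9643, followed by RELA at 231 and NFKBIB at 458. The partners in the kinase complex stood at place 950 (IKBKB) and 4959 (CHUK), and RELB was the farthest at 6732. These places rest on 4 libraries only, and nearness in them is not a test.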

How the data were processed

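The members and lists were chosen with earlier results of these data known. Polyadenylated RNA was sequenced paired-end, and by their methods the authors mapped the reads to hg38 with MapSplice and took expression from Cufflinks. The submitters' processing notes name Bowtie2 2.0.6, TopHat2 2.0.9, Cufflinks 2.1.1 and Cuffdiff 2.1.1, with no role given. The authors deposited FPKM per Ensembl gene, with the gene length in bp used as another value. Isoform values were not used here. Whether counting used strand, and how reads of repeated sequence were treated, is not given in the sources used here.

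Dividing FPKM times length by its smallest step gave whole numbers for 100% of values above 0 (tolerance 0.02), taken as reads for Poisson and conditional intervals at 95%. The size by which the authors scaled a library was 84.9% to 97.3% of its reads on genes, lowest for DMSO at 24 h and highest for melatonin at 48 h. Mitochondrial genes took 9.77% to 20.0% of the reads, least in DMSO at 48 h and most in DMSO at 24 h. Differences were taken in log2(FPKM + 1) where 1 of the libraries or both had an FPKM of 1 or more, and called from 2-fold. This pseudocount of 1 understates differences of low genes. With 1 library per condition there was no p-value. The scripts were tested on simulated data.

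Genes named were all members, IKBKGP1, from each list its highest gene by mean FPKM and up to 6 genes past 2-fold with melatonin, and the 5 nearest profiles to IKBKG. Other names were chosen after their values were seen. Gene coordinates are those of the files, exons are from GENCODE 44 on hg38 and promoters from RefSeq on GRCh38.p14. Sequence before a RefSeq start was printed as far as the gene's start in the files or the last match, whichever came later, which for TNFAIP3 is inside the gene as the files give it. Python 3.11, numpy 2.4.6, pandas 2.3.3, scipy 1.17.1 and matplotlib 3.10.9 were used. Alternatives were a pseudocount of 0.1, no minimum or a minimum FPKM of 5, a 1.5-fold limit, TPM, the plain sum of reads, centring, a GC content and length correction and the reads of IKBKGP1 added to IKBKG. Library sizes from nuclear reads, and the settings tried for the order of the 4 libraries, were chosen after seeing the data. The result for 1 item is not reported here.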

Additional observations from a re-analysis of the deposited data

Results flagged for a closer look

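For 3 of the 10 genes the difference between melatonin and DMSO in log2(FPKM + 1) had opposite signs at 24 and 48 h, which was not tested, since each condition has 1 library. Opposite signs were found for 33.5% of the 12775 genes tested at both times. With TPM, IKBKB and NFKBIA joined, which made 5 members beside 41.1% of genes. Centring on the median or the GC content and length correction left 2, IKBKG and RELB, beside 32.9% and 32.7% of genes. IKBKG was at 0.17 at 24 h and -1.02 at 48 h, so that its 48 h value minus its 24 h value was -1.19. RELA was at 0.01 and -0.47, a step of -0.47. RELB was at -0.10 and 0.03, a step of 0.13. The counting interval of the ratio at 24 h included 1 for all 3 genes, and that of RELB did so at 48 h too.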

How the results depend on the processing

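No member past 2-fold reversed its sign under any alternative run. The 1 member past 2-fold at 48 h with melatonin, IKBKG, became 0 with the plain sum of reads, centring on the median, the GC content and length correction and nuclear reads as library size. A 1.5-fold limit gave 1 member at 24 h and 4 at 48 h with melatonin, and 2 (DMSO) and 1 (melatonin) for 48 h against 24 h. TPM gave 3 members past 2-fold for 48 h against 24 h with DMSO, IKBKG, IKBKB and NFKBIB, all upwards, as were 16.4% of all genes (20.3% in either direction). TPM moved the median of all genes to 0.17 at 24 h, 0.46 for time with DMSO and 0.23 for time with melatonin, and the plain sum of reads moved it to 0.14 for time with DMSO. Relative to the 0.46, these members lay short of 2-fold. Of the members separated by treatment in all 4 libraries, TPM left 2 of 4 below and 1 of 2 above, while the shares of all genes went from 18.5% to 10.2% and from 18.1% to 19.0%. Adding the reads of IKBKGP1 moved the IKBKG share to 51.3% (DMSO) and 29.5% (melatonin) at 48 h. Of all genes past 2-fold, the share that was higher moved from 32.7% to 45.8% with TPM and 44.9% with the GC content and length correction, and to 21.2% at a minimum FPKM of 5, with melatonin at 24 h. For time with DMSO it moved from 45.2% to 80.7% (TPM) and 61.8% (plain sum of reads), and for time with melatonin from 58.9% to 72.9% with TPM. No paired analysis was possible because each condition has 1 library, and for the same reason no replicate could be left out. The cause of these shifts was not tested. By counting error alone, the RELB ratio lay between 0.735 and 1.13 at 24 h and between 0.794 and 1.33 at 48 h.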

Other observations

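Among the hepatocyte markers, which were used to check the cell line, 2 of 8 passed 2-fold with melatonin at 48 h. At that time 5.72% of all genes tested did. TTR, which encodes the thyroid hormone carrier transthyretin, had an FPKM of 50.6 in DMSO and 255.6 in melatonin. AFP, which encodes the fetal serum protein alpha-fetoprotein, had an FPKM of 1902 in DMSO and 782 in melatonin. At 24 h the values were 41.9 and 46.8 for TTR, and 1131 and 985 for AFP, short of 2-fold.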
